A study of Homo sapiens with 10 samples.

Results

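The genes of the *IFIT* and *IFITM* families were followed through siRNA knockdown of 2 chromatin remodelers in VCaP cells. The members were chosen by gene symbol and comprise 4 *IFIT* genes (*IFIT1*, *IFIT2*, *IFIT3* and *IFIT5*) and 3 *IFITM* genes (*IFITM1*, *IFITM2* and *IFITM3*). All 7 were found among the 59386 genes of the count files, and all 7 passed the filter on low counts that left 16899 genes for testing. VCaP is an established human prostate cancer cell line that expresses the androgen receptor. *SMARCA4* encodes an ATPase of the SWI/SNF complexes and *SMARCA1* an ATPase of the ISWI complexes, and the experiment was done to learn how their depletion changes transcription. Cells were harvested for RNA 72 h after lipid transfection with 30 pmol of siRNA A or siRNA B against *SMARCA4*, or of siRNA A or siRNA C against *SMARCA1*. Control libraries are labelled WT, and the labels give neither the siRNA nor the dose they received. Each of the 5 conditions had 2 libraries, so that 4 libraries stood for each knockdown and 2 for the control. The labels do not say whether libraries of one condition came from separate cultures, so p-values measure only the spread between these libraries, which may be technical.

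IFIT proteins are cytosolic RNA-binding proteins built of tetratricopeptide repeats. IFIT1 binds mRNA whose cap lacks 2′-O methylation and blocks its translation, IFIT2 and IFIT3 assemble with IFIT1 into complexes, and IFIT5 binds RNA with a 5′ triphosphate. IFITM proteins are small membrane proteins that hinder the fusion of viral and cellular membranes, IFITM1 mainly at the cell surface and IFITM2 and IFITM3 in endosomes. Both families belong to the interferon-stimulated genes: interferons bind their receptors, the kinases JAK1 and TYK2 are activated, and the factor ISGF3, which contains STAT2 and IRF9, binds interferon-stimulated response elements in promoters.

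In GRCh38, the build of the count files, the *IFIT* members lie in one cluster on chromosome 10 and the *IFITM* members in one cluster near the end of the short arm of chromosome 11. *IFIT2* spans positions 89283694 to 89309271, *IFIT3* 89327307 to 89377473, *IFIT1* 89392546 to 89406487 and *IFIT5* 89414568 to 89421605, all on the plus strand. *IFITM2* spans 303655 to 309397 and *IFITM1* 310041 to 315272 on the plus strand, and *IFITM3* spans 319676 to 329475 on the minus strand. The exons of each gene summed to between 4326 bases (*IFIT2*) and 5067 bases (*IFIT3*) in the *IFIT* family, and to between 1507 bases (*IFITM2*) and 2844 bases (*IFITM3*) in the *IFITM* family. The *IFITM* genes share part of their exon sequence with each other. Of the stretches of 50 exon bases in *IFITM2*, 14.5% also occurred in *IFITM1* transcripts and 12.8% in *IFITM3* transcripts of GENCODE release 44. In *IFITM1*, 13.02% were shared with *IFITM2*, 11.9% with *IFITM3* and 24.1% with the overlapping annotation ENSG00000288681. In all, 45.3% of such stretches in *IFITM1*, 23.4% in *IFITM2* and 30.0% in *IFITM3* occurred in at least 1 other gene, against 9.97% in *IFIT2* and 3.79% in *IFIT3*. *IFIT5* shared none with another gene, and for *IFIT1* 1.21% occurred in other genes. Whether reads that fit several genes were counted is not given in the sources used here, so counts of the *IFITM* genes are less certain than those of the *IFIT* genes.

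Promoter sequences are shown because the interferon-stimulated response element is the sequence through which ISGF3 acts. RefSeq windows of 300 bases, from 250 bases before to 50 after a transcription start (GRCh38.p14), were matched to 5 of the 7 members, *IFIT3* with 2 starts. They were searched on both strands for a response element-like motif of 10 bases, GAAA and again GAAA with any 2 bases between them, which on the opposite strand reads TTTC, any 2 bases and TTTC. The motif was found in each of the 6 windows, in 3.57% of all 35116 windows, and in at least 1 window of 20 of the 35 matched genes among 40 other interferon-stimulated genes. A match is a description of the letters and not a shown binding site. The windows from 160 bases before to 20 after the start read as follows, 5′ to 3′ in the direction of transcription, with the motif in capitals.
IFIT1 (chr10:89392463-89392642, plus strand): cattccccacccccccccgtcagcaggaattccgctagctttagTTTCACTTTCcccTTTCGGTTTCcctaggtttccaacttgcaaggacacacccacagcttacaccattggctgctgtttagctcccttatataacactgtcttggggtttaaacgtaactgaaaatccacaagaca
IFIT3, start 1 (chr10:89327837-89328016, plus strand): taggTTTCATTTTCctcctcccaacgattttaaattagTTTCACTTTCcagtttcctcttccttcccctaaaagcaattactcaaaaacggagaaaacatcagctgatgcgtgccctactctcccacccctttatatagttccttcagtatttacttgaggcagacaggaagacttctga
IFIT3, start 2 (chr10:89332369-89332548, plus strand): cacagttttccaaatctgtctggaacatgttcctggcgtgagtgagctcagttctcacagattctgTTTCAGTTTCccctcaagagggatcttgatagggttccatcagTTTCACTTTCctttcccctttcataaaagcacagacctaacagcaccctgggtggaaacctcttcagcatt
IFIT5 (chr10:89414408-89414587, plus strand): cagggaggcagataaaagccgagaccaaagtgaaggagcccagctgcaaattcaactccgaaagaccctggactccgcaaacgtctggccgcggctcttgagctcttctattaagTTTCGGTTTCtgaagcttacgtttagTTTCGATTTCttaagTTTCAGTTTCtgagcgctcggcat
IFITM1 (chr11:313880-314059, plus strand): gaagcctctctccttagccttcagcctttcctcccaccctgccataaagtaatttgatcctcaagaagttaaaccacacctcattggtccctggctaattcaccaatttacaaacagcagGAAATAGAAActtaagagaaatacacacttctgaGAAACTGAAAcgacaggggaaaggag
IFITM3 (chr11:320841-321020, minus strand): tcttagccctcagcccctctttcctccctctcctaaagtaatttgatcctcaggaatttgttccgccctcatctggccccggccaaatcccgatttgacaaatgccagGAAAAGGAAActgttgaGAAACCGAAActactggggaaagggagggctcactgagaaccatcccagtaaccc
All 9 matches in the *IFIT* windows were of the TTTC form, while all 4 matches in the *IFITM* windows were of the GAAA form in the direction of transcription. The matches began 116 and 103 bases before the start of *IFIT1*, and 52 and 35 bases before that of *IFITM3*. *IFIT5* had 3 matches, at 45, 19 and 4 bases before its start. In *IFITM1* they began 40 and 6 bases before the start. The motif TTCNNNGAA, the letters of the gamma-activated site, which reads the same on both strands, was found in the *IFITM1* window alone among the 6, against 7.66% of all windows. There it overlapped the match nearest the start by 3 bases. Among the 35 matched other interferon-stimulated genes, 11 had this motif in at least 1 window, so it is not particular to *IFITM1*.

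**Figure D1:**
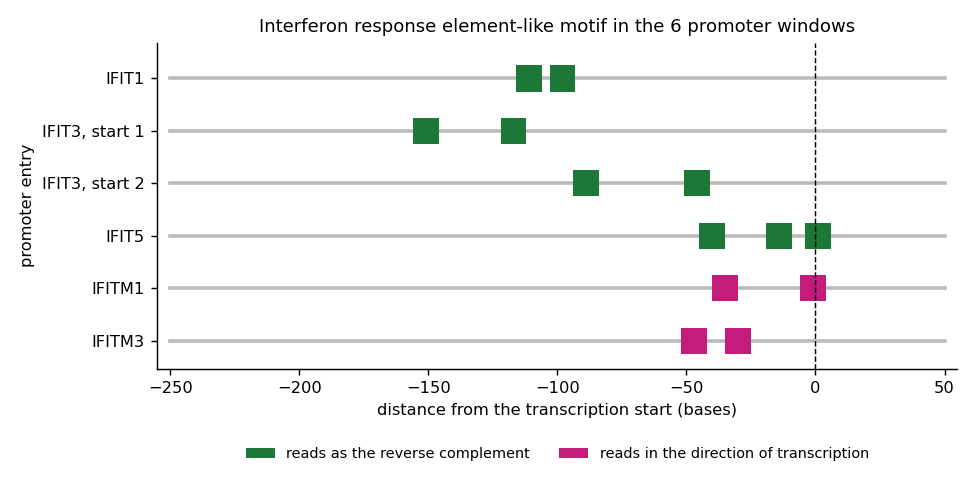
Matches of the response element-like motif (GAAA, any 2 bases, GAAA, on either strand) in the 6 promoter windows of 5 members, drawn by distance from the transcription start in bases on the horizontal axis. Each bar is 1 match of 10 bases, and its colour gives the orientation: the 9 matches of the *IFIT* windows all read as the reverse complement and the 4 of the *IFITM* windows in the direction of transcription.

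Total counts per library lay between 23898545 and 34667965, and 3 counts, the limit that a count of 0 allows for counting error alone, corresponded to between 0.0865 and 0.126 CPM. CPM is the count relative to the total of its library, here also scaled by TMM factors. *SMARCA4* was at 13.3 to 25.2 CPM in the libraries of its knockdown against 242 and 268 CPM in the controls, and *SMARCA1* at 1.75 to 3.40 CPM against 32.3 and 31.5 CPM. All 9 prostate markers listed had counts, with summed levels of 8488 and 8716 CPM in the controls and between 7497 and 9051 CPM in the knockdown libraries. Within that sum, 4 of the 9 were called higher and 2 lower in *SMARCA4* knockdown, and 2 higher and 4 lower in *SMARCA1* knockdown. The kallikrein gene *KLK2* fell from a mean of 4803 CPM to 2964 and 3158 CPM, and the keratin gene *KRT8* rose from 540.3 CPM to 1707 and 2160.1 CPM, in *SMARCA4* and *SMARCA1* knockdown. Of 8 immune cell markers, the B cell gene *MS4A1* was at 0 in all 10 libraries, and the leukocyte gene *PTPRC* and the T cell gene *CD3E* had a single count each in 1 library. The sum of the immune list was 2.34 and 2.38 CPM in the controls, 2.42 to 16.1 CPM in *SMARCA4* and 9.14 to 23.7 CPM in *SMARCA1* knockdown, a rise carried by *LYZ*, the lysozyme gene, and its part in the results was not tested. *CD14*, which made up most of the sum in the controls (1.55 and 1.82 CPM), went the other way. It had 0.559 to 0.804 CPM in *SMARCA4* and 0.795 to 1.26 CPM in *SMARCA1* knockdown. Of the 2 immune markers tested, 1 was called higher and 1 lower in each knockdown. In bulk RNA, more cells that express a gene and more RNA per cell cannot be told apart. The siRNA sequences listed by the study are 25 nt long for *SMARCA1* and 27 nt for *SMARCA4*, while the listed negative control sequence is 19 nt long. These are lengths of single strands, and which strand of the siRNA each sequence gives was not checked. Whether the RNA transfected against *SMARCA1* and *SMARCA4* differed in length can therefore not be told from them. Which lettered siRNA matches which listed sequence is not stated. Because the labels do not give what the controls received, depletion of a target and transfection of siRNA cannot be told apart against control.

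All 7 members rose in both knockdowns (7 of 7 called higher in each, edgeR's quasi-likelihood test with Benjamini-Hochberg adjustment over all genes at 0.05). Over all 16899 genes tested, 22.8% were called higher in *SMARCA4* knockdown and 23.8% in *SMARCA1* knockdown. The shares called lower are not reported here. In either direction, 8889 and 9218 of these genes were below an unadjusted p of 0.05 (edgeR), so changes in both directions were common. Of the 9 prostate markers above, 6 were below it in each knockdown. The median log2 fold change of the 7 members was 8.05 in *SMARCA4* and 8.79 in *SMARCA1* knockdown, while that of all genes tested was 0.0022 and -0.0035. The *IFIT* genes together took between 0.00283% and 0.00302% of all counts in the controls, and between 0.296% and 0.934% in the knockdown libraries. For the *IFITM* genes these shares were between 0.00112% and 0.00131% in the controls and between 0.0287% and 0.198% in the knockdowns.

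*IFIT1*, the cap sensor of the family, had 5.02 and 5.72 CPM in the controls. With *SMARCA4* siRNAs it had 3310.2 and 1469 CPM (siRNA A) and 4433 and 3515 CPM (siRNA B), and with *SMARCA1* siRNAs 1931 and 1751 CPM (siRNA A) and 3904 and 4148 CPM (siRNA C). All 8 knockdown libraries lay far above both controls, and the ranges of both knockdowns overlapped. The control mean of 5.37 ± 0.497 CPM (SD, n = 2) compared with 3182 ± 1242 CPM in *SMARCA4* knockdown and 2933 ± 1268 CPM in *SMARCA1* knockdown (SD, n = 4 each). The log2 fold change was 9.16 (SE 0.41, adjusted p = 6.27e-07, edgeR) in *SMARCA4* and 8.98 (SE 0.41, adjusted p = 1.02e-06) in *SMARCA1* knockdown.

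*IFIT2*, a partner of IFIT1 that is also linked to cell death, had 3.26 and 3.16 CPM in the controls. It had 2045, 644, 2068 and 1773 CPM in *SMARCA4* knockdown (siRNA A, A, B and B) and 917, 1045, 2532 and 2606 CPM in *SMARCA1* knockdown (siRNA A, A, C and C). The second library of *SMARCA4* siRNA A was the lowest of the 8, and all 8 lay above the controls. Its log2 fold change was 8.97 (SE 0.54, adjusted p = 3.93e-06, edgeR) in *SMARCA4* and 8.95 (SE 0.54, adjusted p = 4.44e-06) in *SMARCA1* knockdown. A long noncoding RNA gene annotated on the same strand, *RP11-149I23.3*, overlaps 524 of the 4326 exon bases of *IFIT2*, and it had 0.687 to 1.40 CPM in the knockdown libraries.

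*IFIT3*, which stabilizes IFIT1 in their complex, had 4.77 and 3.46 CPM in the controls. In the same library order it had 1715, 668, 2427 and 2029 CPM in *SMARCA4* knockdown and 1315, 1134, 2634 and 2717 CPM in *SMARCA1* knockdown. The controls did not overlap with any knockdown library. Its log2 fold change was 8.63 (SE 0.47, adjusted p = 2.27e-06, edgeR) in *SMARCA4* and 8.79 (SE 0.47, adjusted p = 2.26e-06) in *SMARCA1* knockdown.

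*IFIT5* stood apart from the other 3 by a higher level in the controls and a smaller rise. It had 17.1 and 15.6 CPM in the controls, 161, 118, 208 and 204 CPM in *SMARCA4* knockdown, and 125, 161, 218 and 238 CPM in *SMARCA1* knockdown. Its log2 fold change was 3.37 (SE 0.17, 95% confidence interval 2.99 to 3.75, adjusted p = 1.65e-06, edgeR) in *SMARCA4* and 3.46 (SE 0.17, interval 3.08 to 3.85, adjusted p = 1.52e-06) in *SMARCA1* knockdown. The lower limits of the other 3 *IFIT* genes were 7.599 or more in *SMARCA4* and 7.74 or more in *SMARCA1* knockdown, so the intervals of *IFIT5* lay below theirs.

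**Figure D2:**
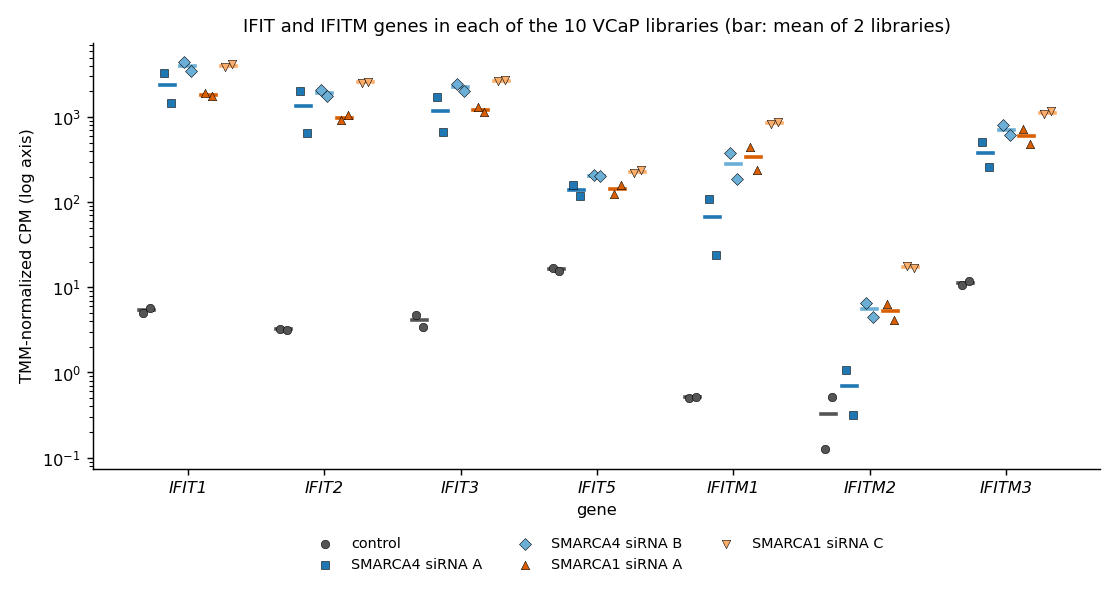
TMM-normalized CPM (log axis) of the 7 members in each of the 10 libraries, with points for libraries and a bar for the mean of the 2 libraries of a condition. The control points lie below all knockdown points except in *IFITM2*, where the higher control library (0.520 CPM) lies above the second library of *SMARCA4* siRNA A (0.314 CPM). The share of all genes whose control and knockdown points did not overlap was not computed.

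*IFITM1*, the cell surface member, was close to the detection limit in the controls, at 12 and 14 counts or 0.502 and 0.520 CPM. It had 109 and 23.9 CPM with *SMARCA4* siRNA A, 375 and 187 CPM with *SMARCA4* siRNA B, 445 and 241 CPM with *SMARCA1* siRNA A, and 819 and 871 CPM with *SMARCA1* siRNA C. The lowest knockdown library was thus far above the controls, and the knockdown libraries spread more widely than those of any *IFIT* gene. The log2 fold change was 8.05 (SE 0.85, adjusted p = 7.13e-05, edgeR) in *SMARCA4* and 10.03 (SE 0.89, adjusted p = 4.55e-05) in *SMARCA1* knockdown. The exons of *RP11-326C3.17* cover 351 of the 1666 exon bases of *IFITM1* on the same strand, and this gene had at most 4 counts in a library.

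*IFITM3*, the endosomal member with the broadest known action against viruses, had 10.6 and 11.9 CPM in the controls. It had 508, 257, 805 and 608 CPM in *SMARCA4* knockdown (siRNA A, A, B and B) and 720.2, 483, 1090.1 and 1166 CPM in *SMARCA1* knockdown (siRNA A, A, C and C). All 8 knockdown libraries were above the controls, and the ranges of both knockdowns overlapped. The log2 fold change was 5.53 (SE 0.34, adjusted p = 4.3e-06, edgeR) in *SMARCA4* and 6.20 (SE 0.35, adjusted p = 3.12e-06) in *SMARCA1* knockdown.

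*IFITM2* was the least abundant member. Its control libraries held 3 and 14 counts (0.125 and 0.520 CPM), and it had 1.08, 0.314, 6.52 and 4.49 CPM in *SMARCA4* knockdown against 6.44, 4.10, 17.8 and 16.8 CPM in *SMARCA1* knockdown. The *SMARCA4* and control libraries overlapped, whereas the *SMARCA1* libraries all lay above the controls. The log2 fold change was 2.53 (SE 0.57, adjusted p = 0.00509, edgeR) in *SMARCA4* and 4.83 (SE 0.51, adjusted p = 9.72e-05) in *SMARCA1* knockdown. Without the control library of 3 counts, the *SMARCA4* value was 1.93 and missed the threshold (adjusted p = 0.0531, edgeR). In the knockdown libraries, the CPM of *IFITM2* was between 0.993% and 2.40% of that of *IFITM1*, with which it shares exon sequence, and the part of shared reads in its counts was not tested.

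Each siRNA was then set against the controls on its own, which asks whether the rise rests on 1 of the 2 siRNAs of a target. All 7 members were called higher with siRNA B against *SMARCA4* (23% of all genes were) and with siRNA A (18.5%) and siRNA C (23.8%) against *SMARCA1*. With *SMARCA4* siRNA A 6 of 7 were called higher, against 17.4% of all genes. The exception was *IFITM2*, with a log2 fold change of 1.03 (SE 0.70, adjusted p = 0.287, edgeR). *IFIT1* ranged over the 4 siRNAs from a log2 fold change of 8.42 (*SMARCA1* siRNA A) to 9.55 (*SMARCA1* siRNA C), and *IFITM1* from 7.01 (*SMARCA4* siRNA A) to 10.68 (*SMARCA1* siRNA C). These 4 comparisons share the same 2 control libraries.

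**Figure D3:**
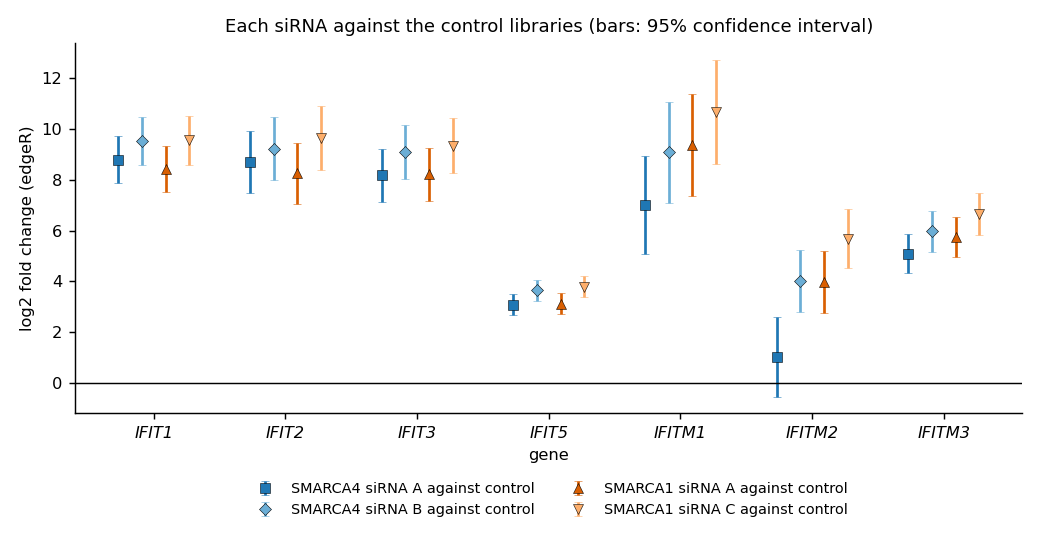
Log2 fold change of each member with each siRNA against the 2 control libraries, with 95% confidence intervals from edgeR on the vertical axis and genes on the horizontal axis. All intervals lie above 0 except that of *IFITM2* with *SMARCA4* siRNA A, which runs from -0.53 to 2.59, and the intervals of *IFIT5* (2.69 to 4.21 over the 4 siRNAs) lie below those of *IFIT1*, *IFIT2* and *IFIT3*.

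Within a target, every member was estimated lower with siRNA A than with the other siRNA. The same held for all 40 other interferon-stimulated genes, whose highest log2 difference was -0.0075 for *SMARCA4* and -0.14 for *SMARCA1*. The median over all genes tested was 0.010 and -0.020. Between *SMARCA4* siRNA A and siRNA B the log2 differences ran from -0.51 (*IFIT2*) to -3.00 (*IFITM2*), and *IFITM2* alone passed the threshold (adjusted p = 0.0121, edgeR), where 3.17% of all genes were called lower. At an unadjusted p below 0.05 there were 6 of 7 members (24.5% of all genes), and DESeq2 called 4 (11.6% of all genes). Between *SMARCA1* siRNA A and siRNA C they ran from -0.67 (*IFIT5*) to -1.71 (*IFITM2*). None of these passed with edgeR (adjusted p between 0.139 and 0.276) although all 7 were below an unadjusted p of 0.05, as were 17.1% of all genes, and DESeq2 called 4, as it did 3.26% of all genes. Only 2 of all genes tested (0.0118%) were called lower with siRNA A in that comparison by edgeR. Within *SMARCA4* knockdown, the second library of siRNA A was the lowest and the first library of siRNA B the highest for all 7 members. The share of all genes with these extremes was not computed.

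Averaged over the 2 siRNAs of each target, the knockdown libraries differed in the *IFITM* genes. The p-values of this comparison measure the spread between libraries of one siRNA, not that between siRNAs of a target. All 3 *IFITM* genes were called lower in *SMARCA4* than in *SMARCA1* knockdown and none of the 4 *IFIT* genes was called in either direction (0 of 4 also at an unadjusted p below 0.05, and 0 with DESeq2), where 35.4% of all genes were called, 19.1% lower and 16.3% higher. The log2 difference of *IFITM1* was -1.98 (SE 0.41, adjusted p = 0.00478, edgeR), that of *IFITM2* -2.29 (SE 0.30, adjusted p = 0.000458) and that of *IFITM3* -0.66 (SE 0.20, adjusted p = 0.0287). Those of the *IFIT* genes had intervals that held 0: -0.27 to 0.63 for *IFIT1*, -0.58 to 0.61 for *IFIT2*, -0.67 to 0.37 for *IFIT3* and -0.35 to 0.16 for *IFIT5*. The difference between the families was not tested as such. The ranges of CPM overlapped between the knockdowns for all 7 members. The share of all genes whose ranges overlapped was not computed, so this count is a description.

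The differences in both families varied with the siRNAs compared, in pairs chosen after seeing the data. *SMARCA4* siRNA A against *SMARCA1* siRNA C gave -3.67 for *IFITM1*, -4.65 for *IFITM2* and -1.56 for *IFITM3*, all 3 called, and there *IFIT3* (-1.17, adjusted p = 0.0323, edgeR) and *IFIT5* (-0.71, adjusted p = 0.0139) were called lower as well. *SMARCA4* siRNA B against *SMARCA1* siRNA A gave -0.29, 0.06 and 0.23, none of them called (adjusted p = 0.733, 0.921 and 0.582, edgeR), while *IFIT1* (1.11, adjusted p = 0.0196) and *IFIT5* (0.52, adjusted p = 0.0387) were called higher. Over the 4 pairs, *IFITM1* was lower in all 4 and called in 2, *IFITM2* was called in 3 and *IFITM3* in 1. *IFITM3* also missed the threshold when 1 of 5 libraries was left out, among them the second library of *SMARCA4* siRNA A (log2 difference -0.45, adjusted p = 0.0542, edgeR). Without that library *IFIT1* and *IFIT2* were called higher in *SMARCA4* knockdown, by 0.42 and 0.33.

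Levels were also set relative to *IFIT1* in the same library. On the RPKM scale, which divides the CPM by the kilobases of exon, *IFITM1* was at 9.12%, 4.50%, 23.4% and 14.7% of *IFIT1* in the *SMARCA4* knockdown libraries, and at 63.9%, 38.1%, 58.1% and 58.2% in the *SMARCA1* knockdown libraries. *IFITM3* was at 27.7 ± 1.97% (SD, n = 4) of *IFIT1* in *SMARCA4* and at 49.0 ± 7.66% (SD, n = 4) in *SMARCA1* knockdown, from 24.9% to 29.5% and from 44.7% to 60.5%. Neither ratio overlapped between the knockdowns, and the same held for *IFIT3*, at 41.4% to 52.6% against 59.0% to 62.0%, and for *IFITM2*, at 0.0655% to 0.450% against 0.717% to 1.39%. The ratio overlapped for *IFIT2*, at 46.8% to 65.9% against 50.7% to 69.2%, and for *IFIT5*. Over all other genes tested, the ratio to *IFIT1* did not overlap for 4.28%, and lay lower in *SMARCA4* knockdown for 3.44%, as it did for these 4 of the 6 members. In the controls *IFITM3* was at 342% and 336% and *IFIT5* at 360% and 288% of *IFIT1*, and in the knockdown libraries *IFIT5* was at 4.95% to 9.70%.

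**Figure D4:**
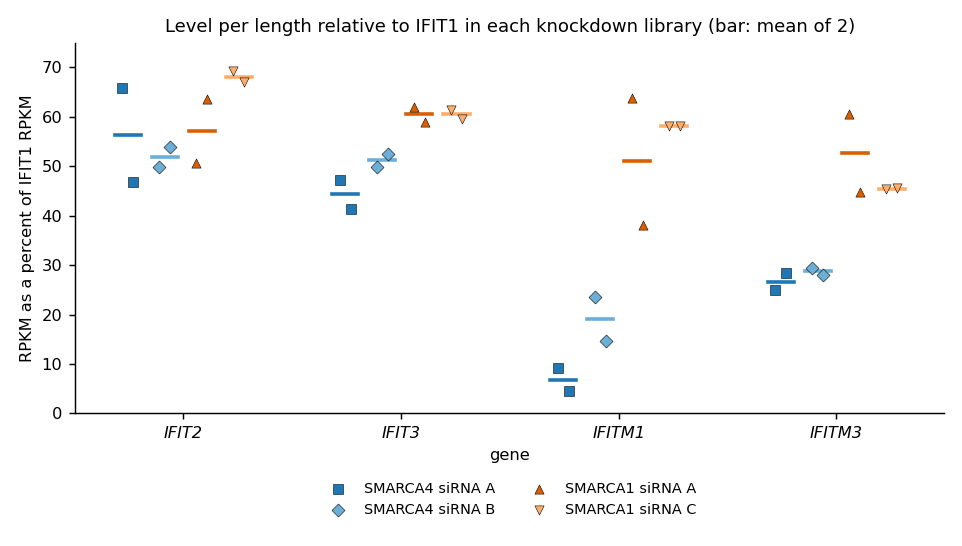
RPKM of *IFIT2*, *IFIT3*, *IFITM1* and *IFITM3* as a percent of the RPKM of *IFIT1* in the same library, for the 8 knockdown libraries (points) with the mean of the 2 libraries of an siRNA (bars). *IFITM1* and *IFITM3* lie at 4.50% to 29.5% with both *SMARCA4* siRNAs and at 38.1% to 63.9% with both *SMARCA1* siRNAs.

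The order of levels per length changed with knockdown. In the controls the highest members were *IFITM3* at 3.94 ± 0.316 RPKM and *IFIT5* at 3.74 ± 0.243 RPKM (SD, n = 2 each), which did not differ beyond their spread, followed by *IFIT1* at 1.16 ± 0.108 RPKM. *IFIT3* (0.811 ± 0.183 RPKM) and *IFIT2* (0.742 ± 0.0170 RPKM) overlapped, and *IFITM1* (0.307 RPKM) and *IFITM2* (0.214 RPKM) came last. In *SMARCA4* knockdown *IFIT1* led at 689.6 ± 269 RPKM (SD, n = 4), ahead of *IFIT2* at 377 ± 155 RPKM and *IFIT3* at 337 ± 149 RPKM. *IFITM3* (191 ± 80.2 RPKM), *IFITM1* (104 ± 90.0 RPKM), *IFIT5* (39.5 ± 9.65 RPKM) and *IFITM2* (2.06 ± 1.93 RPKM) followed. In *SMARCA1* knockdown *IFIT1* led again at 636 ± 275 RPKM, but *IFIT2* (410.3 ± 212 RPKM), *IFIT3* (385 ± 166 RPKM), *IFITM1* (357 ± 181 RPKM) and *IFITM3* (304 ± 113 RPKM) were within each other's spread, and *IFIT5* (42.4 ± 11.8 RPKM) and *IFITM2* (7.48 ± 4.65 RPKM) were again the lowest. The exon length of the annotation was used for RPKM, and it can exceed that of the transcripts present.

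Members of a family mostly varied together more closely across the 8 knockdown libraries than members of different families. Pearson's r of log2 CPM was 0.96 for *IFIT1* with *IFIT2* and with *IFIT3*, 0.98 for *IFITM1* with *IFITM2*, and 0.61 for *IFIT1* with *IFITM1*. The exception was *IFIT3* with *IFITM3*, at 0.91, against 0.89 for *IFIT1* with *IFIT5* within a family. *IFITM1* and *IFITM2* share exon sequence, and the part of shared reads in their correlation was not tested. Over genes of at least 1 CPM on average, the 5 genes most like the mean of the *IFIT* members were *TNFSF10* (the death ligand TRAIL, r = 0.99), *MAP3K8*, *CLEC2D*, *BLZF1* and *TNFAIP3*. *TNFSF10* had a control mean of 15.5 CPM and 127 to 471 CPM in the knockdown libraries, with r = 0.99 also over all 10 libraries. For the *IFITM* mean they were *TMEM9B*, *STAT6*, *CPNE5*, *MST1R* and *SERPING1*, all at r = 0.99 over the 8 libraries, and over all 10 libraries at 0.45, 0.95, 0.95, 0.77 and 0.94 in that order. These values describe 8 libraries of 4 siRNAs, which share the differences between siRNAs, and the genes were taken as the highest of 13642 and 13643 compared.

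The interferon genes, which encode the ligands upstream of both families, were at 0 or 1 counts in the controls. *IFNB1*, the type I interferon of non-immune cells, had 0 counts in both controls, 97, 43, 178 and 188 counts in *SMARCA4* knockdown and 74, 85, 317 and 315 counts in *SMARCA1* knockdown. *IFNL1*, a type III interferon, had 0 and 1 counts in the controls, 532, 184, 896 and 945 counts in *SMARCA4* and 361, 256, 1018 and 1130 counts in *SMARCA1* knockdown. Within each target the libraries with the lowest *IFNB1* and *IFNL1* counts were those of siRNA A. *IFNL2* and *IFNL3*, near copies of each other whose counts are less certain, were also called higher, which made 4 of 5 interferon genes tested in both knockdowns, and *IFNE* was not called (adjusted p = 0.0628 and 0.145, edgeR). *IFNK* and *IFNG* had no counts in any library, and *IFNA1* had at most 6.

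Of 9 genes of the receptors and of ISGF3, 5 were called higher in *SMARCA4* and 6 in *SMARCA1* knockdown, none lower, with a median log2 fold change of 0.50 and 0.47. *STAT2* rose by 3.38 on the log2 scale (SE 0.20, adjusted p = 3.65e-06, edgeR) and 2.30 (SE 0.19, adjusted p = 3.02e-05), and *IRF9* by 3.55 and 3.17. *STAT2* had 44.5 and 47.5 CPM in the controls, 486, 295, 542 and 628 CPM in *SMARCA4* knockdown and 155, 165, 322 and 325 CPM in *SMARCA1* knockdown, and was called higher in *SMARCA4* than in *SMARCA1* knockdown (log2 difference 1.07, SE 0.14, adjusted p = 0.000416), the opposite direction to the *IFITM* genes. *IFNAR1*, *IL10RB* and *JAK1* were called in neither knockdown, and *IFNAR2* in *SMARCA1* knockdown alone (0.26 and 0.47, adjusted p = 0.107 and 0.0113), a difference between knockdowns that was itself not called (adjusted p = 0.131).

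All 3 interferon regulatory factors listed were called higher in both knockdowns. *IRF7*, which amplifies interferon production, had 12.6 and 12.1 CPM in the controls and 162 to 349 CPM in the knockdown libraries. Of 7 genes of RNA sensing, 5 were called higher and 1 lower in *SMARCA4*, and 6 higher and 1 lower in *SMARCA1* knockdown. *DHX58* (log2 fold change 6.00 and 6.41), *DDX58*, which encodes RIG-I (6.09 and 5.42), and *IFIH1*, which encodes MDA5 (4.51 and 4.49), were among those higher. *MAVS*, their adaptor at mitochondria, was the one that fell (-0.65 and -0.82). *STING1*, the adaptor of DNA sensing, was called higher in *SMARCA1* knockdown (1.28, adjusted p = 0.012, edgeR) and not called in *SMARCA4* knockdown (-0.70, adjusted p = 0.179). Its level was low, with 7 and 14 counts in the controls, 29, 23, 32 and 34 in *SMARCA1* and 7, 4, 11 and 10 in *SMARCA4* knockdown. All 5 feedback inhibitors listed were called higher, led by *ISG15* (7.66 and 7.85) and *USP18* (4.86 and 5.11), which restrains signaling at the receptor.

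Genes whose products modify the RNA caps read by IFIT1, or the IFITM proteins, were also listed. Of 4 cap methylation genes, 2 were called higher and 1 lower in both knockdowns. *CMTR1*, the cap 2′-O methyltransferase that makes host mRNA invisible to IFIT1, had 32.1 and 34.7 CPM in the controls and 104 to 229 CPM in the knockdown libraries, a fold change of 5.26 and 4.30 (adjusted p = 1.61e-05 and 4.61e-05, edgeR). *RNMT*, the cap guanine methyltransferase, fell by 0.62 and 0.46 on the log2 scale. Of 5 genes whose products modify or partner IFITM proteins, 3 were called lower and none higher in both knockdowns. Below an unadjusted p of 0.05 (edgeR), in either direction, were 3 of the 4 cap genes and 3 of these 5 in each knockdown. Of all 16899 genes, 8889 in *SMARCA4* and 9218 in *SMARCA1* knockdown were. *ZDHHC20*, a palmitoyltransferase for IFITM3, had 199 and 176 CPM in the controls and 38.8 to 125 CPM in the knockdown libraries (log2 fold change -1.16 and -1.83). *SETD7*, a lysine methyltransferase of IFITM3, had log2 fold changes of -1.26 and -1.73, and *ZMPSTE24*, a partner of IFITM proteins, of -0.46 and -0.43, while *NEDD4* and *VAPA* were called in neither.

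Among 40 other interferon-stimulated genes, all 40 were called higher in both knockdowns, with a median log2 fold change of 5.92 in *SMARCA4* and 5.78 in *SMARCA1* knockdown. *XAF1*, *OASL*, *RSAD2* and *OAS2* had the largest rises in *SMARCA4* knockdown, at 9.35, 9.30, 9.17 and 9.14, in the range of *IFIT1*. In the controls *XAF1* had only 3 and 3 counts and *OASL* 13 and 14, which limits the precision of their rises. *RSAD2* had 138 and 130 counts there and *OAS2* 51 and 81. Between the knockdowns, 7 of the 40 were called lower and 6 higher in *SMARCA4*, where 19.1% and 16.3% of all genes were. The lowest of them were *IFI27* (log2 difference -1.70, adjusted p = 0.00842, edgeR), *BST2*, which encodes the surface protein tetherin (-1.56, adjusted p = 0.0215), and *TRIM22* (-1.19, adjusted p = 0.023). In a ranking of the 47 genes by this difference, *IFITM2* and *IFITM1* held the lowest 2 places and *IFITM3* the 10th, while the *IFIT* genes ranked 22nd to 34th. *RNF213* had the highest difference, 0.63 (adjusted p = 0.0349, edgeR). The genes of this list were chosen with earlier results of these data known, so the count is a description.

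**Figure D5:**
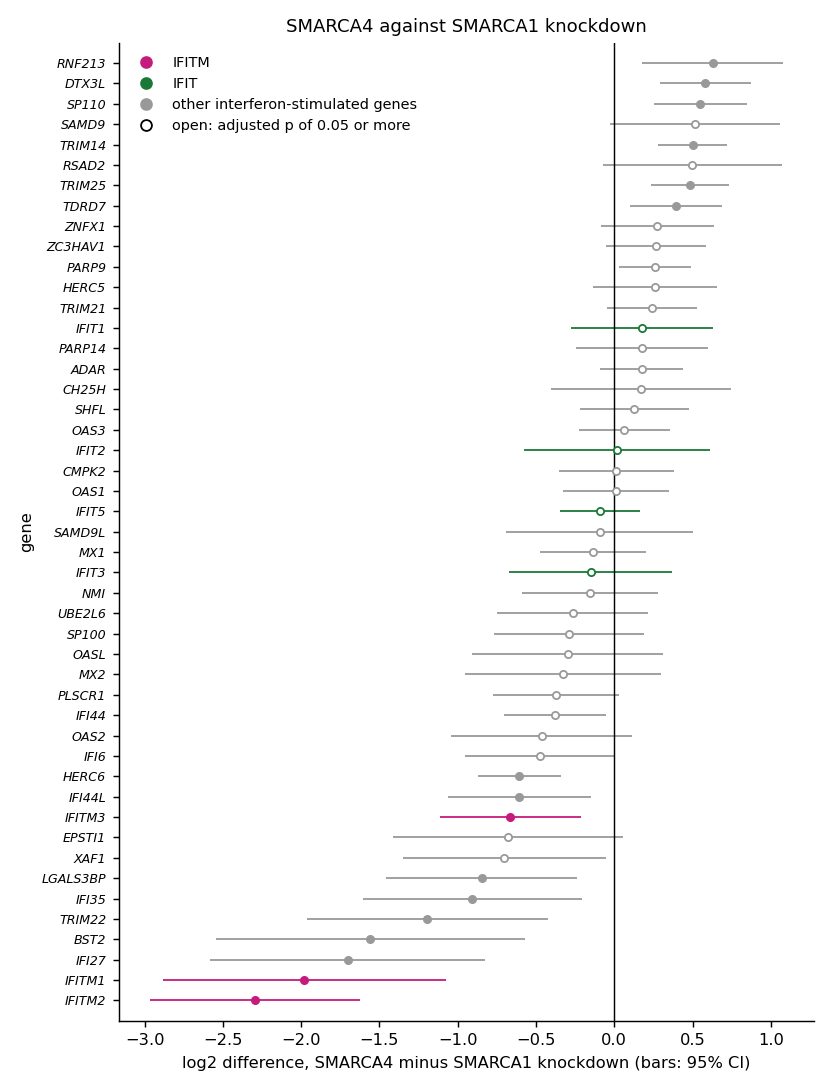
Log2 difference between *SMARCA4* and *SMARCA1* knockdown, with 95% confidence intervals from edgeR on the horizontal axis, for the 7 members and 40 other interferon-stimulated genes ranked from lowest to highest. *IFITM2* (-2.29) and *IFITM1* (-1.98) lie at the low end next to *IFI27* (-1.70) and *BST2* (-1.56), and the *IFIT* genes lie between -0.15 and 0.18.

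Relatives of the families that lie outside the interferon response were mostly silent. Of 11 listed, 10 did not pass the filter on low counts and 3 had no count in any library, among them *IFITM5*, the bone member that lies in the *IFITM* cluster. *IFIT1B*, which lies in the *IFIT* cluster, had no counts in the controls and at most 0.330 CPM in the knockdown libraries. The relative tested, *PRRT2*, had 12.0 and 14.01 CPM in the controls, 12.6 to 20.7 CPM in *SMARCA4* and 6.17 to 7.30 CPM in *SMARCA1* knockdown, and fell in the latter by 0.95 on the log2 scale (adjusted p = 0.00139, edgeR).

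Most genes next to the members had smaller fold changes than the members. Of 60 annotated genes within 250 kb of a member, 22 were tested, of which 10 were called higher and 4 lower in *SMARCA4* knockdown and 11 higher and 1 lower in *SMARCA1* knockdown. Below an unadjusted p of 0.05 (edgeR), in either direction, were 15 and 14 of the 22, and 8889 and 9218 of all 16899 genes. The median log2 fold change of the 22 neighbours was 0.30 and 0.43. The largest log2 fold change was that of *CH25H*, itself an interferon-stimulated gene, with 2 and 1 counts in the controls and 20 to 109 counts in the knockdown libraries, called higher in both. *LIPA*, which encodes lysosomal acid lipase, is annotated on the strand opposite to the *IFIT* cluster and shares 65 exon positions with *IFIT2* and 94 with *IFIT3*, where reads cannot be told apart unless counted by strand, a setting not given in the sources used here. It had 39.2 and 33.0 CPM in the controls and 45.6 to 94.1 CPM in the knockdown libraries, a log2 fold change of 0.94 and 0.75. Next to the *IFITM* cluster, *B4GALNT4* had 25.7 and 29.2 CPM in the controls and fell in *SMARCA4* knockdown (-0.87, adjusted p = 0.00015, edgeR) but was not called in *SMARCA1* knockdown (-0.06, adjusted p = 0.654).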

How the data were processed

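RNA-seq of 10 VCaP libraries was used. The authors selected polyadenylated RNA, prepared directional libraries, sequenced paired-end reads, trimmed adaptors, aligned to GRCh38 with HISAT2 and counted reads per gene with featureCounts on GENCODE annotations. The submitters' processing notes name HISAT2 2.1.0 and featureCounts 1.5.2. The GENCODE release and the strand and multimapping settings are not given in the sources used here. The deposited files hold unnormalized counts of 59386 genes and each gene's summed exon length.

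Groups, siRNAs and replicate numbers came from the labels. In edgeR 4.0.16 (R 4.3.3), filterByExpr at a count of 10 and a total of 15 left 16899 genes, which were scaled by TMM and fitted by the quasi-likelihood test (glmQLFit, glmQLFTest) to all 10 libraries as 5 groups. For each target both siRNA groups were averaged and set against control, and p-values were adjusted by Benjamini-Hochberg over all genes tested, with calls below 0.05. Standard errors are the absolute log2 fold change over the root of F. Log2 CPM for correlations used a prior count of 2. The fit was tested on simulated data. The libraries of a group differed beyond sampling noise (chi-square per gene 3.80 to 60.6) and each counted as 1 sample.

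Members and gene lists were chosen with earlier results of these data known. Named genes were the members, up to 4 of each list by absolute log2 fold change, those of a list not called, neighbours within 250 kb, and the 5 genes of highest r to each family. *IFIT1B*, *IFITM5*, *MAVS*, *RNMT*, *RNF213*, *KLK2*, *KRT8*, *CD14* and the difference of *STAT2* were named after their values were seen. Values of some listed genes are not reported here. Alternatives were DESeq2 1.42.0, RLE factors, library totals, other filters, the replicate block, only the groups compared, each siRNA alone and each library left out. The pairs of 1 siRNA of each target were added after seeing the data. Other marker lists (stroma, endothelium, basal and neuroendocrine cells) were computed. Their summed levels were 18.1 to 55.0 CPM (stroma), 1.59 to 3.16 CPM (endothelium), 3.05 to 107.6 CPM (basal, where *KRT14* rose and *KRT5* and *TP63* stayed near 0) and 55.9 to 100.6 CPM (neuroendocrine) over the 10 libraries.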

Additional observations from a re-analysis of the deposited data

Results flagged for a closer look

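*IFIT2* was flagged for 1 library among the 4 of *SMARCA4* knockdown. The second library of siRNA A was at 644 CPM and the nearest of the others at 1773 CPM. On the log2 CPM scale, the gap between these made up 0.868 of the range of the 4 libraries, more than Dixon's 95% limit for 4 samples. The test was made on that scale alone, and the flag holds for it. The test was made for 14 groups of libraries, 7 members in 2 knockdowns, and chance flags about 1 group in 20. That library was also the lowest of the 4 for the other members.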

How the results depend on the processing

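Across the alternatives, all 7 members stayed called higher in *SMARCA1* knockdown, and in *SMARCA4* knockdown 131 of 133 values kept direction and call, the exceptions being *IFITM2* with siRNA A alone (log2 fold change 1.03) and without the first control library (1.93). Leaving out 1 library at a time gave 6 to 7 members called in *SMARCA4* and 7 in *SMARCA1* knockdown, and 64 to 72 and 64 to 74 pathway genes. Between the knockdowns 3 members were called, 2 to 5 with 1 library left out (5 without the first library of *SMARCA4* siRNA A), and 5 for *SMARCA4* siRNA A against *SMARCA1* siRNA C and 1 for siRNA B against siRNA C. Between the *SMARCA4* siRNAs 1 member was called, against 4 with DESeq2, 7 without a filter, 2 at 1 CPM or more in 2 libraries, 3 with the replicate block, 0 with only the groups compared, and 0 to 7 with 1 library left out. Without the first library of siRNA A it was 7, without either library of *SMARCA1* siRNA A 4, and without the second library of siRNA A or the first of siRNA B it was 0. Between the *SMARCA1* siRNAs 0 were called, against 4 with DESeq2, 7 without a filter and 0 to 5 with 1 library left out (5 without either library of *SMARCA4* siRNA A). The cause of these shifts was not tested.

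Differences that changed sign were those of *IFIT* genes near 0 and of *IFITM* genes for 1 siRNA pair. *IFIT1* was at -0.75 (siRNA A against siRNA C), -0.02 (siRNA B against siRNA C) and -0.16 (without the first library of *SMARCA4* siRNA A). *IFIT2* was at -0.93 and -0.42 for the same pairs, -0.50, and called, without that library, -0.043 with the replicate block, and -0.02 without the first library of *SMARCA4* siRNA B (-0.021) or of *SMARCA1* siRNA A (-0.019). *IFIT3* was at 0.86 for *SMARCA4* siRNA B against *SMARCA1* siRNA A and 0.12 without the second library of *SMARCA4* siRNA A, which left *IFIT1* and *IFIT2* called at 0.42 and 0.33. *IFIT5* was at 0.52, called, for that pair, 0.021 without that library and 0.01 without the second library of *SMARCA1* siRNA A. *IFITM2* and *IFITM3* were at 0.062 and 0.23 for the same pair. Without the first library of *SMARCA4* siRNA A, *IFIT3* (-0.55) was called and *IFIT5* was at -0.20. Between the *SMARCA4* siRNAs *IFIT2* was at 0.083 without the second library of siRNA A and at -1.57 without the first.

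The replicate numbers of the labels did not meet the rule for pairing, a correlation of deviations over 0.1 in every pair of groups: over 10 pairs it lay between -0.10 and 0.36 and passed 0.1 in 3, those among *SMARCA4* siRNA A, *SMARCA4* siRNA B and *SMARCA1* siRNA A (0.36, 0.13 and 0.27). With the replicate block, the counts of the other comparisons stayed within 1.5 times. The 12 to 14 counts of *IFITM1* and 3 to 14 of *IFITM2* in the controls limit the precision of their fold changes.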
